A study of Mus musculus with 16 samples.

Results

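Tuft cells are rare chemosensory cells of the intestinal epithelium that carry a tuft of microvilli on the luminal side. They sense succinate and other luminal compounds through receptors and a taste-like cascade that ends at the cation channel Trpm5, and they release interleukin 25 and lipid mediators that act on group 2 innate lymphoid cells. In the small intestine, interleukin 13 from those cells acts back on the epithelium and leads to more tuft and goblet cells. TAS1R3, the protein that the study deleted, is the shared subunit of the sweet and umami taste receptors.

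The genes described here are 10 genes by which intestinal tuft cells are recognised, chosen by name: Dclk1, Pou2f3, Il25, Sucnr1, Avil, Alox5, Hpgds, Ptgs1, Sh2d6 and Il17rb. Of these, 9 had transcripts among the 59258 rows of the table, which sum to 23299 genes, and 8 passed the filter on low values that left 19042 genes for testing. Il25, the tuft cell cytokine, is not analysed here. Sucnr1 did not reach an RPKM (reads per kilobase of transcript, relative to the library total) of 1 in any library, so it has values but no fitted test in the main setting.

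RNA was sequenced from the terminal ileum of C57BL/6 mice that carried either the normal Tas1r3 gene (Tas1r3+/+) or a constitutive deletion of it in all cells (Tas1r3-/-, the Tas1r3tm1Csz allele backcrossed to C57BL/6, with wild-type littermates as controls). The mice were 5 to 6 weeks old at the start and were fed for 10 weeks either a normal diet with plain water (ND) or a Western diet with 60% fat and a 30% sucrose solution (WD). The labels name 4 mice per group, 2 of each sex. The female ND-fed Tas1r3-/- columns equal weighted means of the 2 male columns in all but 17 and 18 of the 59258 transcripts, and in all 36 transcripts of the tuft cell genes, so they were left out. The female WD-fed Tas1r3-/- columns are related to each other and were averaged to 1 library. This left 13 libraries: 4 of ND-fed Tas1r3+/+ mice, 2 of ND-fed Tas1r3-/- mice, both male, 4 of WD-fed Tas1r3+/+ mice and 3 of WD-fed Tas1r3-/- mice. Values are RPKM summed over the transcripts of a gene and divided by 1 scaling factor per library (scaled RPKM).

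The values imply 7003270 to 12384200 reads per library, and 1 read on a transcript of 1 kb was worth an RPKM of 0.0692 to 0.139. The ND columns summed to 817011 to 819916 RPKM and the WD columns to 542371 to 685274, so every comparison of diets rests on the scaling. Tas1r3 itself was at 1.56 to 2.09 scaled RPKM in the ND-fed and 4.33 to 6.65 in the WD-fed Tas1r3+/+ libraries, and at most at 0.00532 in the 5 Tas1r3-/- libraries. The 8 epithelial markers summed to 2230.2 to 8002.6 scaled RPKM, the 7 smooth muscle markers to 1062 to 5550.2 and the 10 markers of enteric neurons and glia to 20.3 to 153, so the libraries are of the whole bowel wall and differ in their makeup. The lowest epithelial and the highest smooth muscle sums were both in male 1 of the WD-fed Tas1r3-/- mice. In whole tissue, fewer tuft cells and less RNA per tuft cell cannot be told apart.

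The level of the tuft cell genes in the ileum was low. Ptgs1, which encodes cyclooxygenase 1, the enzyme that makes the precursor of the prostaglandins, had the highest mean at 18.1 ± 7.61 scaled RPKM (SD, n = 13). It was followed by Sh2d6, an SH2 domain protein of tuft cells, at 4.58 ± 2.29, and by Dclk1, a microtubule-associated kinase widely used to stain tuft cells, at 3.59 ± 1.05. Avil, which encodes advillin, an actin-bundling protein of the villin family, had a mean of 3.01 ± 1.02, and Il17rb, a subunit of the interleukin 25 receptor, of 1.99 ± 0.468. Below these came Alox5, the 5-lipoxygenase that starts leukotriene synthesis, at 1.56 ± 0.775, and Hpgds, the haematopoietic prostaglandin D synthase, at 1.36 ± 0.423. Pou2f3, the transcription factor without which tuft cells do not form, had 0.873 ± 0.234, and Sucnr1, the succinate receptor, 0.559 ± 0.254. Ptgs1 was above Sh2d6, and Avil above Il17rb, in 13 of 13 libraries. Neighbours such as Sh2d6 and Dclk1, or Dclk1 and Avil, changed places, with the upper gene higher in 9 of 13 libraries each, and Alox5 was above Hpgds in 7 of 13.

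Few reads stood behind these levels. Sucnr1 rested on 4 to 15 reads per library, Pou2f3 on 14 to 36, Alox5 on 14.3 to 86.2 and Hpgds on 31 to 85.2. Dclk1 had 75.9 to 240.2 reads and Ptgs1 168 to 671. The spread over the 13 libraries was widest for Sh2d6 and Alox5, with coefficients of variation of 49.9% and 49.8%, and narrowest for Il17rb, with 23.5%.

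**Figure D1:**
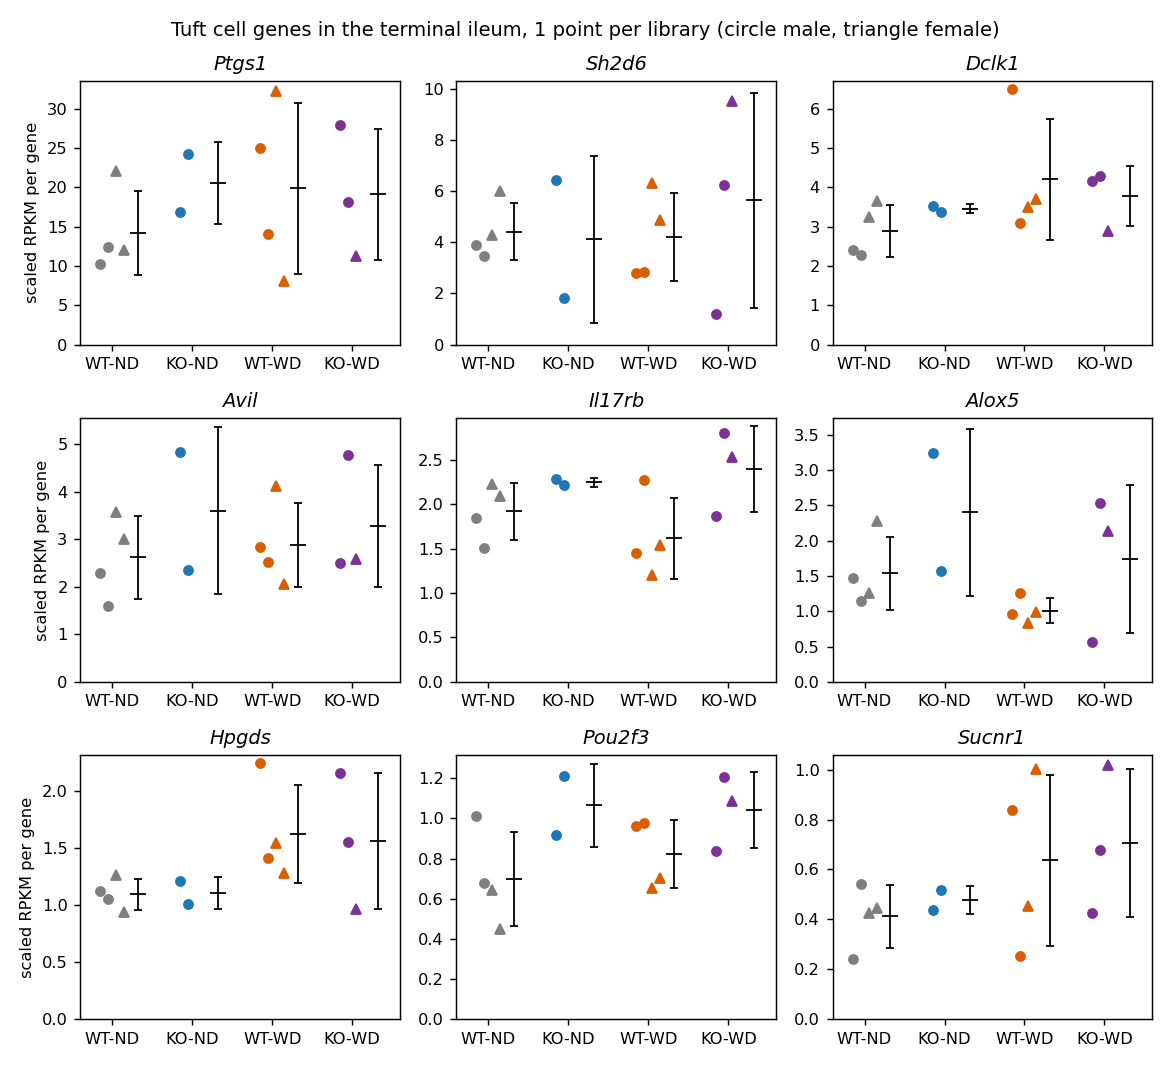
Scaled RPKM of the 9 tuft cell genes in each of the 13 libraries, by group, with circles for males and triangles for females; the black bar is the group mean with its SD. In the 4 comparisons of 2 groups, the groups overlap in every panel except Hpgds on the normal and the Western diet in Tas1r3+/+ mice, where the lowest WD value of 1.28 lies above the highest ND value of 1.26.

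Pou2f3 belongs to the POU factors, which bind the octamer, ATGCAAAT on either strand. In the windows from 250 bases before to 50 bases after the RefSeq start of 8 of the genes (9 windows, as Dclk1 has 2 starts, on GRCm38.p6), the octamer was present for Sucnr1 and Hpgds. It occurs in 570 of the 32851 windows of all genes, or 1.74%. The 2 sites are shown with 10 bases on each side, 5′ to 3′ on the strand of the gene, with the octamer in capitals.
Sucnr1: gctgcataatATGCAAATcagactgcac
Hpgds: tttactctttATGCAAATacgttggact
The Sucnr1 site lies on the plus strand at chr3:60081811-60081838, with the octamer starting 48 bases before the start of the gene. The Hpgds site lies on the minus strand at chr6:65144887-65144914. Its octamer starts 174 bases before the RefSeq start but 4 bases after the first base of the coding transcript Hpgds-201 in GENCODE, so it is at the 5′ end of the first exon there. These are matches of letters, and no measurement of binding was made.

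On the Western diet, no tuft cell gene passed the test in Tas1r3+/+ mice. The comparison asks whether the diet moved the tuft cell programme when the taste receptor was present. By limma, where a call needs both a fold of 2 or more and an adjusted p below 0.01, 0 of 8 were called, against 0.00525% of all genes, and 0 of 8 had an unadjusted p under 0.05, against 15.5%. Of the 8, 5 were higher and 3 lower on the Western diet, with a median log2 fold change of 0.14 against 0.02 over all genes tested.

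Dclk1 was measured at 2.41, 2.29, 3.24 and 3.66 scaled RPKM in the ND-fed libraries, given as males 1 and 2 and then females 1 and 2 here and in what follows. In the WD-fed libraries it was at 6.50, 3.10, 3.51 and 3.70. Male 1 of the WD-fed mice was the highest of all 13 libraries, and the other WD-fed values overlapped with those of the ND-fed females. The fold was 1.35 (log2 fold change 0.44 ± 0.24, SE; limma adjusted p = 0.394), with a 95% interval from 0.947 to 1.94, and the exact permutation test gave p = 0.171. In males alone the log2 fold change was 0.82, with an unadjusted limma p of 0.0363.

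Hpgds converts prostaglandin H2 to prostaglandin D2, a lipid released by tuft cells and by mast cells. It was at 1.12, 1.05, 1.26 and 0.935 scaled RPKM in the ND-fed libraries. On the Western diet its values were 2.24, 1.41, 1.54 and 1.28. All 4 WD values lay above all 4 ND values. It was the only one of the 8 genes whose groups did not overlap, against 10.5% of all genes tested. The fold was 1.32 (log2 fold change 0.40 ± 0.23, SE; limma adjusted p = 0.43). The two-sided exact permutation test gave p = 0.0286, the smallest that 4 against 4 allows, and 0.873 after Benjamini-Hochberg adjustment over the 36 exact tests of 9 genes in 4 comparisons. Without any scaling between libraries, the log2 fold change was 0.07. Beside this, all 8 epithelial markers were lower on the Western diet (median log2 fold change -0.59), while 5 of 6 fibroblast markers (0.44), 6 of 7 smooth muscle markers (0.37) 8 of 10 markers of enteric neurons and glia (0.46) and 6 of 7 macrophage markers (0.25) were higher. The summed epithelial markers ranged from 4751.6 to 8002.6 scaled RPKM in the ND-fed and from 3502 to 5795.7 in the WD-fed libraries, the summed fibroblast markers from 123 to 223 and from 90.5 to 316, and the summed macrophage markers from 85.9 to 158 and from 93.5 to 172. Their part in the Hpgds difference was not tested.

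Ptgs1 was at 10.3, 12.4, 22.1 and 12.1 scaled RPKM in the ND-fed libraries. In the WD-fed libraries it ran from 25.0 and 14.1 in the males to 32.3 and 8.11 in the females. The highest and the lowest of the 13 libraries for this gene were thus both WD-fed Tas1r3+/+ females. The fold of 1.28 had a 95% interval from 0.694 to 2.36 (limma adjusted p = 0.702). With only the protein-coding transcripts summed, the log2 fold change was 0.84, with an unadjusted limma p of 0.0516.

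Alox5 had 1.48, 1.14, 1.26 and 2.28 scaled RPKM on the normal and 0.957, 1.25, 0.836 and 0.988 on the Western diet. The groups overlapped in 1 WD-fed male and 1 ND-fed male only, and the fold was 0.753 (95% interval 0.455 to 1.25; limma adjusted p = 0.579; exact permutation p = 0.0571). Il17rb was at 1.85, 1.51, 2.23 and 2.09 and then at 1.45, 2.27, 1.20 and 1.54, a fold of 0.866 (limma adjusted p = 0.66). Pou2f3 was at 1.01, 0.679, 0.646 and 0.451 on the normal diet. On the Western diet its values were 0.962, 0.976, 0.653 and 0.704, with a fold of 1.11 (95% interval 0.80 to 1.55). Sh2d6 and Avil likewise overlapped, with folds of 0.928 and 1.09. Sucnr1 was at 0.240, 0.541, 0.423 and 0.443 and then at 0.836, 0.251, 0.454 and 1.00, which overlap (exact permutation p = 0.257).

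In Tas1r3-/- mice, 0 of the 8 genes were called between the diets, against 0.0% of all genes, and 0 had an unadjusted p under 0.05, against 5.49%. With 3 against 2 libraries the exact test cannot go below 0.1. Of the 8 genes, 4 were higher and 4 lower on the Western diet, and 0 had groups that did not overlap, against 20.9% of all genes. Hpgds was at 1.20 and 1.01 scaled RPKM in the ND-fed males and at 2.16 and 1.55 in the WD-fed males, but at 0.964 in the averaged WD-fed female library. Its fold of 1.25 had a 95% interval from 0.795 to 1.95 (limma adjusted p = 0.994). Alox5 was at 3.24 and 1.57 on the normal diet, and at 0.559, 2.54 and 2.13 on the Western diet. Male 1 of the WD-fed mice gave the lowest of all 13 Alox5 values and male 1 of the ND-fed mice the highest.

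On the normal diet, the comparison of genotypes asks whether loss of the receptor alone moves the tuft cell genes. By limma, 0 of 8 were called, against 0.0% of all genes, and 0 had an unadjusted p under 0.05, against 4.73%. Of the 8, 7 were higher in Tas1r3-/- mice, with a median log2 fold change of 0.31 against 0.01 over all genes, and 0 did not overlap, against 22.0%. Both Tas1r3-/- libraries are male, and the smallest exact p is 0.0667. Pou2f3 was at 0.917 and 1.21 scaled RPKM in the Tas1r3-/- libraries, of which the first lies inside and the second above the range of the 4 Tas1r3+/+ libraries, 0.451 to 1.01. Its fold was 1.32 (95% interval 0.879 to 1.98; limma adjusted p = 0.895). Avil, at 4.85 and 2.36, Alox5, at 3.24 and 1.57, and Sh2d6, at 6.41 and 1.81, all differed more between the 2 Tas1r3-/- males than the group means did. Male 1 was the higher in all of these genes, and for Ptgs1, at 16.9 and 24.3, male 2 was. All 7 smooth muscle and all 10 neuronal and glial markers were also higher in the Tas1r3-/- libraries (median log2 fold changes 0.62 and 0.49). Their part in the direction of the tuft cell genes was not tested.

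On the Western diet, 0 of 8 genes were called between the genotypes, against 0.0105% of all genes, and 0 had an unadjusted p under 0.05, against 2.65%. Of the 8, 6 were higher in Tas1r3-/- mice and 0 did not overlap, against 2.84%. Il17rb, through which interleukin 25 acts on innate lymphoid cells and which tuft cells also express, came nearest to a difference. Its values were 1.87 and 2.81 scaled RPKM in the Tas1r3-/- males and 2.53 in the female library. In the Tas1r3+/+ mice they were 1.45, 2.27, 1.20 and 1.54. Only 1 Tas1r3+/+ male reached into the range of the Tas1r3-/- libraries. The fold was 1.38 (log2 fold change 0.47 ± 0.23, SE; 95% interval 0.981 to 1.94; unadjusted p = 0.0623; limma adjusted p = 1.00), with an exact permutation p of 0.0857. With only the protein-coding transcripts summed, the log2 fold change was 0.09.

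Alox5 was at 0.559, 2.54 and 2.13 scaled RPKM against 0.957, 1.25, 0.836 and 0.988, so that 2 of 3 Tas1r3-/- libraries lay above all 4 Tas1r3+/+ libraries and the third below them. The log2 fold change was 0.44 ± 0.36 (SE; limma adjusted p = 1.00), and 0.94 without male 1 of the Tas1r3-/- mice, with an unadjusted p of 0.011. In that limma fit, 3.17% of all genes had an unadjusted p under 0.05, and Alox5 was not called. Its WD-fed Tas1r3-/- group held only male 2 and the averaged female library. The library left out also had the lowest Sh2d6 of all, 1.19 against 6.23 and 9.52 in the others of its group, and the lowest summed epithelial markers, 2230.2 against 4308 and 6419.8. Dclk1 was at 4.17, 4.29 and 2.90 scaled RPKM in the Tas1r3-/- libraries, a fold of 0.933 (95% interval 0.633 to 1.37), and Pou2f3 at 0.836, 1.21 and 1.09, a fold of 1.17 (0.815 to 1.67).

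Over the 4 comparisons, 20 of the 32 intervals of the 8 genes lay within a 2-fold change in either direction, and all 32 included no change. The widest reached a fold of 3.24 upwards and 0.326 downwards, both for Sh2d6. These folds are of scaled RPKM + 0.5, which understates the change of low genes. For Pou2f3 on the normal diet, the mean was 0.697 scaled RPKM in Tas1r3+/+ and 1.06 in Tas1r3-/- mice, but the fold was 1.32. The count of 20 thus sets no bound on the change of low genes in RPKM. The change with diet was also compared between the genotypes. For this interaction, 0 of 8 genes were called, against 0.0% of all genes, and 0 had an unadjusted p under 0.05, against 1.43%. The lowest unadjusted p was 0.398, for Dclk1 (limma adjusted p = 1.00).

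**Figure D2:**
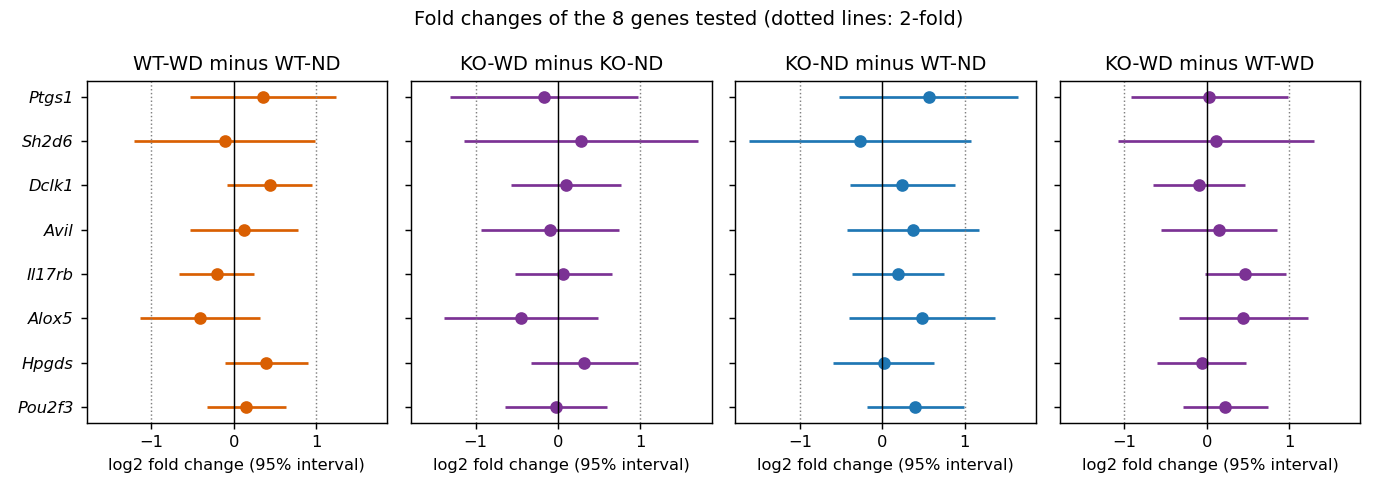
Log2 fold change (x axis) of the 8 tuft cell genes tested, with the 95% interval from limma, in the 4 comparisons of 2 groups. Every interval crosses 0, and 20 of 32 stay between the dotted lines that mark a 2-fold change. The folds are of scaled RPKM + 0.5, which understates the change of low genes.

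The other genes of tuft cells and of the circuit they act in were taken from fixed lists. Of 6 genes of the chemosensory cascade that were tested, 0 were called in any of the 4 comparisons of 2 groups. Trpm5 was at 3.04, 3.06, 2.46 and 3.08 scaled RPKM in the ND-fed and 2.85, 2.55, 2.66 and 4.42 in the WD-fed Tas1r3+/+ libraries, a log2 fold change of 0.06 ± 0.33 (SE; limma adjusted p = 0.945). In Tas1r3-/- mice it was at 4.03 and 3.33 on the normal and at 1.35, 6.23 and 4.41 on the Western diet. Male 1 of the WD-fed Tas1r3-/- mice was again the lowest library. The most abundant gene of that list, Itpr3, a calcium release channel that other cells also express, averaged 13.7 RPKM.

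Of 4 genes tested of eicosanoid and acetylcholine synthesis, led by Alox5ap, and of 3 tuft lineage regulators, led by Sox9, 0 were called. Gfi1b, a repressor found in tuft cells, stayed below 0.5 scaled RPKM and was not tested. Of 19 other tuft genes tested, led by the keratin Krt18, 0 were called, and 2 were higher and 1 lower on the Western diet in Tas1r3+/+ mice at an unadjusted p under 0.05, against 15.5% of all genes. One of these was Tspan6, a tetraspanin, with group means of 1.05 on the normal and 2.10 on the Western diet (log2 fold change 0.73 ± 0.20, SE; limma adjusted p = 0.136). At the same limma threshold, 1 of the 19 was lower on the Western diet in Tas1r3-/- mice, against 5.49% of all genes. Between the genotypes, 0 passed on the normal diet, against 4.73%, and 2 were higher in Tas1r3-/- mice on the Western diet, against 2.65%. In the interaction 1 passed, against 1.43%. In the type 2 circuit, 7 of 14 genes were tested and 0 called. Il4ra, the receptor subunit through which interleukins 4 and 13 signal, had group means of 28.5 and 20.1 on the normal and Western diets in Tas1r3+/+ mice and of 15.5 and 19.1 in Tas1r3-/- mice. In the same order, its values ran from 16.9 to 50.8, 15.8 to 26.6, 14.2 to 16.8 and 16.7 to 22.7. Neither the diet in Tas1r3+/+ mice nor the genotype on the normal diet passed (limma adjusted p = 0.578 and 0.895). Clca1, a secreted goblet cell protein, was the most abundant gene of that list at a mean of 418 RPKM. Interleukin 13 is not analysed here. Of 2 of the 9 mast cell markers that could be tested, both were lower on the Western diet in Tas1r3+/+ mice, with unadjusted p over 0.05.

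The 12 lists of other cell types, led by Krt8, Acta2, Uchl1, Dcn, Mcpt1, C1qb, Csf3r, Thy1, Cd79a, Pyy, Lyz1 and Fabp4, served as measures of tissue makeup. No gene of any list was called in any comparison by limma. The genes with an unadjusted p under 0.01 in at least 1 comparison of 2 groups included Cd68, Areg, Hs3st1, Gcg, Muc2, Lyz1 and Plin1. The lowest adjusted p among them by limma was 0.0868, for the mucin Muc2 between the diets in Tas1r3+/+ mice (log2 fold change -1.40 ± 0.30, SE). Gcg, Muc2 and Lyz1 are among 70 genes that hold deposited values written with more than 6 significant digits. The tuft cell genes hold none. The cause of these longer values was not tested.

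No pair of tuft cell genes had a correlation across the libraries that passed adjustment. Pearson correlations of log2 values were computed for all 36 pairs of the 9 genes over the 13 libraries, and 0 pairs passed after Benjamini-Hochberg adjustment of the permutation p. With 13 libraries and few reads behind some genes, this does not show that the genes vary independently. The highest were Dclk1 with Hpgds (r = 0.741, rho = 0.615, permutation p = 0.00345 and 0.0292, adjusted 0.124 and 0.365) and Alox5 with Il17rb (r = 0.701, rho = 0.764, permutation p = 0.0076 and 0.00333, adjusted 0.137 and 0.12). Without the 2 libraries farthest from the median of the first gene, r was 0.546 and 0.628. Dclk1 and Hpgds had r = 0.819 in the 7 WD-fed but -0.0706 in the 6 ND-fed libraries. For Alox5 and Il17rb it was 0.781 and 0.567.

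Outside tuft cells, Hpgds and Alox5 are also expressed by leukocytes such as mast cells and macrophages, and Ptgs1 by many stromal cells. Each of the 9 genes was then set against the mean log2 level of the 10 lists of other cell types with at least 3 genes tested, which makes 90 relations, a comparison added when the values had been seen. Of the 90, 8 passed at an adjusted permutation p under 0.05, and all 8 were for Ptgs1 or Hpgds; 6 of the 8 also passed by rho. Ptgs1 rose across libraries with markers of enteric neurons and glia (r = 0.935, rho = 0.918, permutation p = 1e-05 and 6e-05, of which the first is the smallest that the permutations can give, adjusted 0.0009 and 0.0027). With epithelial markers its relation was inverse (r = -0.821, rho = -0.901, permutation p = 0.0004 and 0.00011, adjusted 0.006 and 0.0033). The other 3 lists that Ptgs1 rose with were smooth muscle (r = 0.867, rho = 0.863), fibroblasts (0.867 and 0.89) and macrophages (0.835 and 0.912), with adjusted permutation p for r of 0.006, 0.0054 and 0.006 and for rho of 0.00504, 0.00338 and 0.0027. Without the 2 libraries farthest from the median of the list, r was 0.916 for neurons and glia and -0.842 for epithelium, and it was 0.84 and -0.967 within the 6 ND-fed and 0.983 and -0.851 within the 7 WD-fed libraries. For smooth muscle, fibroblasts and macrophages it was 0.808, 0.839 and 0.89 without 2 libraries, 0.618, 0.897 and 0.918 on the normal and 0.965, 0.884 and 0.808 on the Western diet. These relations depend on which transcripts are summed. With only the protein-coding transcripts of the 9 genes and the marker lists as before, 0 of the 90 relations passed after adjustment. For Ptgs1, r was then 0.675 with neurons and glia, -0.663 with epithelium, 0.428 with smooth muscle, 0.548 with fibroblasts and 0.553 with macrophages, with adjusted permutation p of 0.177, 0.177, 0.542, 0.301 and 0.301.

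Hpgds rose with fibroblast markers (r = 0.813, rho = 0.819, permutation p = 0.00075 and 0.00115, adjusted 0.00964 and 0.0173) and with markers of enteric neurons and glia (r = 0.756, rho = 0.615, permutation p = 0.00293 and 0.0284, adjusted 0.033 and 0.262). With epithelial markers the relation was inverse (r = -0.829, rho = -0.742, permutation p = 0.00036 and 0.00478, adjusted 0.006 and 0.0615), so that only r passed for the last 2 lists. Without the 2 farthest libraries, r was 0.927 for fibroblasts, 0.678 for neurons and glia and -0.782 for epithelium. Within the ND-fed libraries it was 0.684, 0.697 and -0.387, and within the WD-fed libraries 0.916, 0.78 and -0.835. With macrophage markers r was 0.668 (rho = 0.593, permutation p = 0.0126 and 0.0366, adjusted 0.113 and 0.262), 0.427 without the 2 farthest libraries, and 0.06 and 0.874 within the ND-fed and the WD-fed libraries. With coding transcripts only, r of Hpgds was 0.784 with fibroblasts, 0.67 with neurons and glia and -0.678 with epithelium, with adjusted permutation p of 0.121, 0.177 and 0.177. The relation of Hpgds with neurons and glia also missed the threshold in 6 of the 13 sets that leave out 1 library, namely male 1, male 2 and female 2 of the ND-fed Tas1r3+/+ mice and male 1, male 2 and the female library of the WD-fed Tas1r3-/- mice (r from 0.663 to 0.763, adjusted permutation p from 0.0552 to 0.165). Without any scaling, r with epithelium was -0.341 for Hpgds and -0.19 for Ptgs1 and neither passed, while with median-of-ratios and upper quartile scaling it was -0.841 and -0.846 for Hpgds and -0.806 and -0.809 for Ptgs1, and all of these passed.

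None of the other 7 genes had a relation that passed. Dclk1 had r = 0.56 with smooth muscle and -0.63 with epithelial markers. Avil had the highest r with smooth muscle among them, 0.65 (permutation p = 0.0176, adjusted 0.144), and -0.34 with epithelial markers. For Alox5 the values were -0.18 and 0.49, and for Sh2d6 -0.23 and 0.48. Il17rb had -0.06 and 0.14 and Sucnr1 -0.19 and -0.01. Pou2f3, with 0.09 and -0.14, followed neither. The difference between these correlations was not tested, and genes of 1 library share its depth and makeup.

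**Figure D3:**
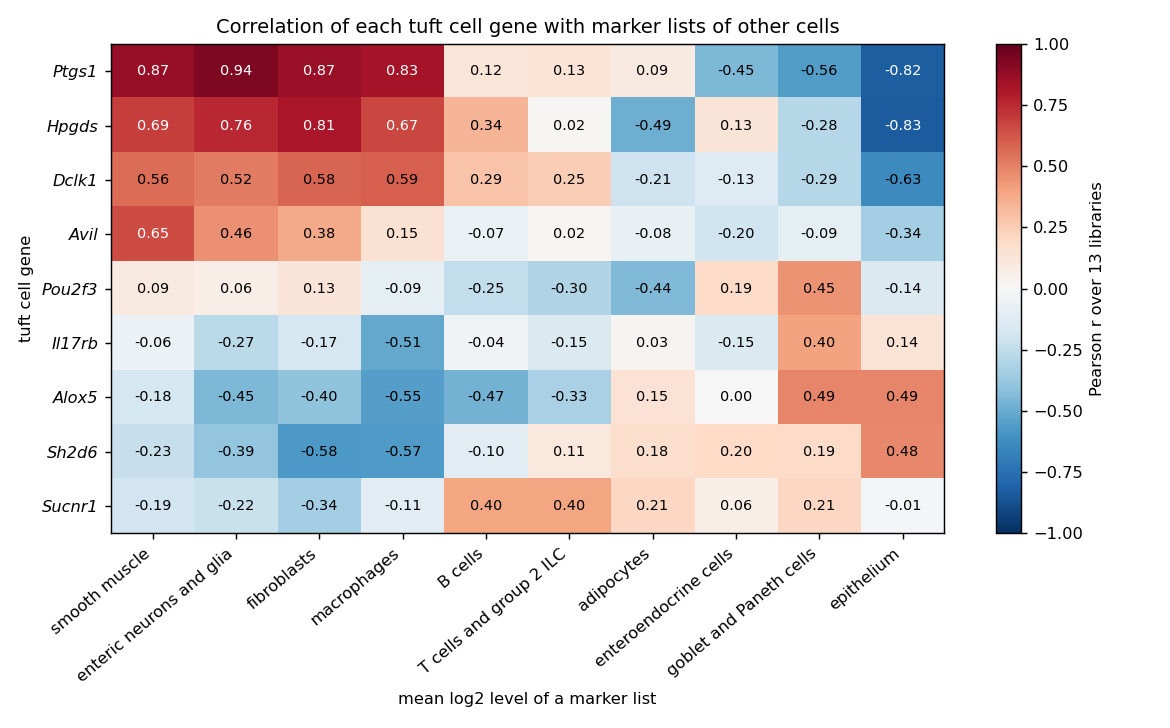
Pearson r over 13 libraries between the log2 level of each tuft cell gene (rows) and the mean log2 level of 10 marker lists of other cells (columns), from blue at -1 to red at 1. Ptgs1 and Hpgds, in the upper rows, reach 0.94 and 0.81 with stromal lists and -0.82 and -0.83 with epithelium; the lower rows, from Pou2f3 on, stay between -0.58 and 0.49.

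**Figure D4:**
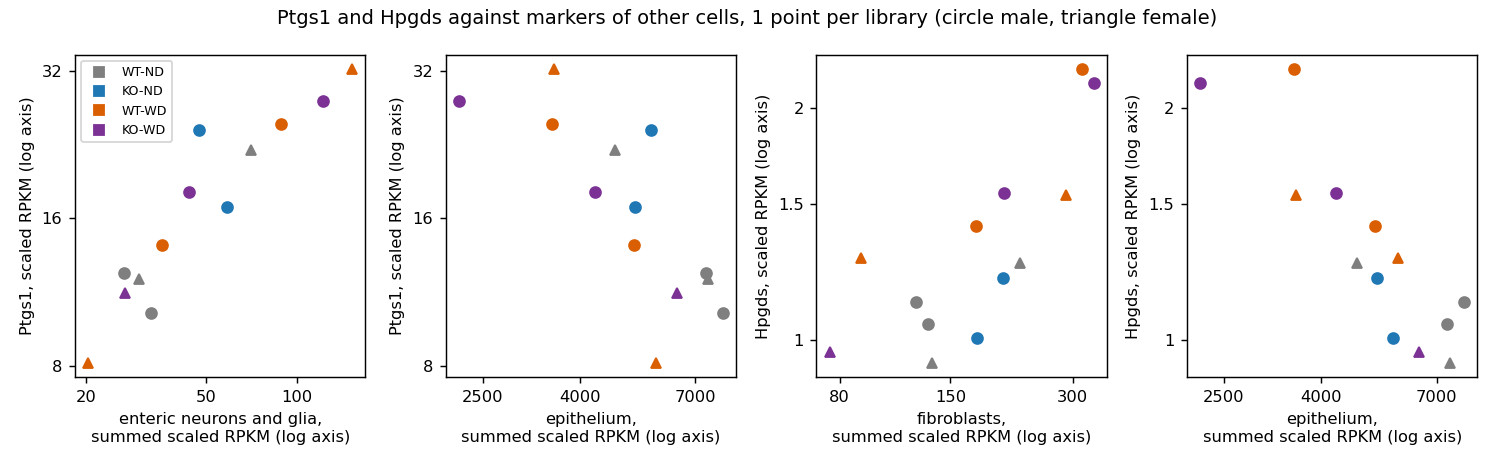
Scaled RPKM of Ptgs1 and Hpgds (y axes, log) against the summed scaled RPKM of marker lists (x axes, log), 1 point per library, coloured by group. Ptgs1 runs from 8.11 to 32.3 as the neuronal and glial sum runs from 20.3 to 153, with the same 2 libraries at the ends, and r for that pair is 0.84 in the ND-fed and 0.983 in the WD-fed libraries.

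The likeness of all other genes to the tuft cell genes was measured as the Pearson correlation of their log2 level with the mean z-score of the 8 tested genes over the 13 libraries, among 17128 genes with a mean RPKM of at least 1. The 10 most alike had r from 0.776 to 0.807 and included Mrps14, Slc50a1, Gm49168, Hypk, Sars2, Sec63, Lyar, Top1mt and Gm49207. None of the genes on the tuft cell lists was among them. The nearest was Gng13, the gamma subunit of the taste G protein, at rank 136 (r = 0.636), and Trpm5 was at rank 2267 (r = 0.376).

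The sums hold transcripts of more than one kind. The protein-coding transcripts made up a median of 20.6% of the Alox5 sum, 27.4% of Ptgs1 and 18.7% of Il17rb over the libraries. For Hpgds, Sh2d6 and Dclk1 they made up 74.6%, 72.5% and 79.8%, and for Avil and Sucnr1 all of it. In Alox5 the retained-intron transcripts Alox5-206 and Alox5-204 held 44.7% and 33.4%, and the coding Alox5-201 21.9%. In Ptgs1 the largest were the processed transcript Ptgs1-204 (36.7%), the retained-intron Ptgs1-202 (24.1%) and the coding Ptgs1-201 (23.2%). Pou2f3-202 held 61.8% and the retained-intron Pou2f3-203 29.6%, Hpgds-201 71.0% and Hpgds-203 29.0%, Sh2d6-206 52.6% and Sh2d6-205 29.0%, Avil-201 84.7% and Il17rb-203 27.8%. The division of reads among overlapping transcripts was estimated by the authors' software, and in Pou2f3 the coding share ran from 0.0826% of the sum to all of it between libraries.

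Dclk1 lies at chr3:55242364-55539068 on the plus strand of GRCm38. Its 8 protein-coding transcripts were divided into 2 sets by where they begin. Of the 8, 4 begin between 55242364 and 55247071 and 4 between 55461728 and 55461916. This division was chosen after the values were seen. The upstream set does not share 1 start. Dclk1-204 begins at 55242364, Dclk1-201 and Dclk1-203 at 55242526, and Dclk1-214 at 55247071. The upstream transcripts were at 0.740, 0.397, 1.33 and 1.66 scaled RPKM in the ND-fed and at 4.24, 1.21, 1.48 and 2.45 in the WD-fed Tas1r3+/+ libraries. In Tas1r3-/- mice they were at 1.81 and 1.65 on the normal and at 0.533, 0.541 and 0.934 on the Western diet. All 3 WD-fed Tas1r3-/- libraries were below all 4 WD-fed Tas1r3+/+ libraries. In that comparison, 2.84% of all genes had groups that did not overlap, counted on sums over all transcripts of a gene. No such share was computed for parts of a gene, which also depend on how reads were divided among transcripts. The difference of mean log2 values was -1.18 (two-sided exact permutation p = 0.0571, and 0.267 after adjustment over 8 tests). In RPKM before scaling, the gap was widest for Dclk1-214, with means of 1.08 in the Tas1r3+/+ and 0.154 in the Tas1r3-/- libraries. That transcript has 413 bases, so 1 read on it is worth more RPKM than on 1 kb. The means of Dclk1-201, Dclk1-204 and Dclk1-203 were 0.602, 0.291 and 0.118, and then 0.27, 0.0863 and 0.037. The downstream transcripts had 2.68, 2.54 and 1.44 scaled RPKM in the same Tas1r3-/- libraries and 1.29, 1.14, 1.63 and 0.371 in the Tas1r3+/+ libraries, a difference of 0.80 (exact permutation p = 0.114, adjusted 0.267). The 2 differences are of opposite sign, and neither passed. Between the diets in Tas1r3-/- mice the groups did not overlap for either set, where 20.9% of all genes, again summed over their transcripts, did not. The upstream transcripts were lower on the Western diet (difference -0.95, exact permutation p = 0.1, the smallest possible) and the downstream transcripts higher (0.57, exact permutation p = 0.2), and both had an adjusted p of 0.267.

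**Figure D5:**
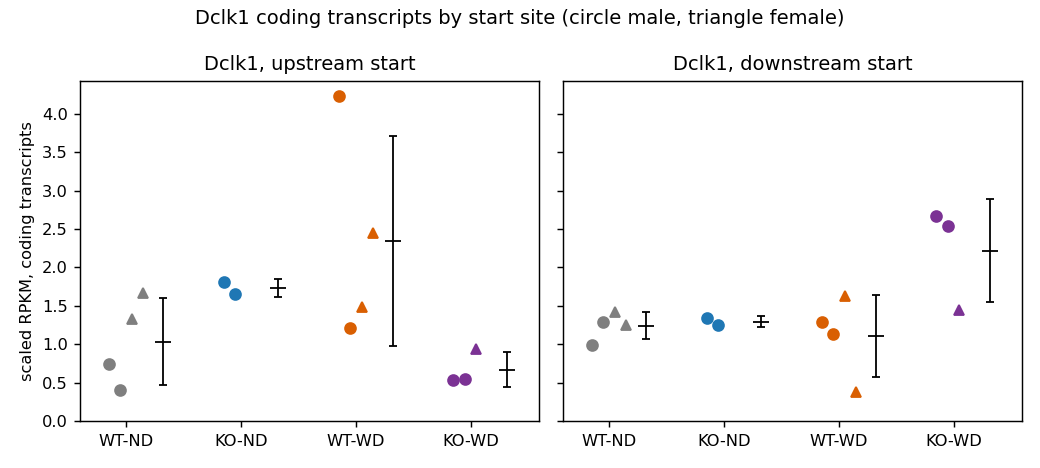
Scaled RPKM of the Dclk1 coding transcripts of the upstream set (left) and of the downstream set (right), 1 point per library, with the group mean and SD in black. The WD-fed Tas1r3-/- libraries lie between 0.533 and 0.934 on the left and between 1.44 and 2.68 on the right.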

How the data were processed

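Terminal ileum RNA was sequenced by the authors, with 16 samples in the labels, on an Ion Proton instrument, mapped with STAR in Partek Flow to GRCm38 and assigned to Ensembl transcripts. The authors deposited RPKM for each transcript (reads over transcript length and a library total). The table is named as counts but holds none, so the authors' DESeq2 test was not repeated. The tuft cell genes and all lists were chosen with earlier results of these data known. All 10 tuft cell genes were named, with the list genes at an unadjusted p under 0.01, the most abundant gene of each list, Trpm5, Gfi1b, Il13, Il4ra and Tas1r3, the 10 most alike genes and the transcripts that hold at least 20% of a gene; some genes that this rule names are not reported here.

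RPKM were summed per gene and scaled by trimmed mean of M values (30% of ratios and 5% of levels trimmed). A gene was tested where 2 or more of the 13 libraries reached an RPKM of 1, on log2(scaled RPKM + 0.5), by limma 3.58.1 in R 4.3.3 with a mean-variance trend, all 4 groups in the same model and Benjamini-Hochberg adjustment over 19042 genes. Fold changes on this scale understate those of low genes. Exact permutation tests and permutations of correlations (100000 resamples) were two-sided. All p-values measure the spread between these libraries, which may be technical. The fit was also run on these values with known changes added to some genes of the WD-fed Tas1r3-/- libraries. The outcome of that run is not reported here. Reads were recovered as whole multiples of a step (RPKM times length, within 0.02 reads), which held for 86.6% to 87.9% of values in genes with 1 transcript. Coordinates are from GENCODE M21 (GRCm38), which matched 98.2% of transcripts, and promoter windows from RefSeq. Alternatives were other scalings, pseudocounts, filters, covariates, samples and thresholds, each library left out in turn, and, added after the data were seen, coding transcripts alone.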

Additional observations from a re-analysis of the deposited data

How the results depend on the processing

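No tuft cell gene was called in any of the 5 comparisons under any alternative run, including an adjusted p under 0.05 with no minimum fold. The most genes with an unadjusted p under 0.05 was 2 of 8, in Tas1r3+/+ mice between diets on values as deposited (Alox5 and Il17rb, both lower; 32.8% of all genes), and between genotypes on the Western diet without male 1 of the Tas1r3-/- mice (Alox5 and Il17rb, both higher; 3.17% of all genes). There was 1 such gene in males only (Dclk1 between diets in Tas1r3+/+ mice, against 17.4% of all genes, and Ptgs1 between genotypes on the normal diet, against 8.92%), and between genotypes on the Western diet with all 16 columns and without male 2 of the Tas1r3+/+ mice (Il17rb in both, against 5.1% and 3.5%). Without scaling, the median log2 fold change of the 8 genes was -0.18 between diets in Tas1r3+/+ mice and -0.28 in Tas1r3-/- mice, while the median of all genes was -0.38 and -0.35; both tuft cell medians thus turned negative with all genes and stayed above them. With each library left out in turn, the medians ranged from 0.01 to 0.23 and from -0.07 to 0.10 for the diets in Tas1r3+/+ and Tas1r3-/- mice, from 0.11 to 0.34 and from -0.03 to 0.33 for the genotypes on the normal and the Western diet, and from -0.32 to 0.12 for the interaction, where the upper value is without male 1 of the ND-fed Tas1r3-/- mice. With the sex and number of the labels as a replicate block, without the averaged female library, the medians were 0.14, 0.03, 0.26, 0.19 and -0.16 in the same order, and 0 genes were called. For libraries with the same sex and number, the deviations from their group means had a median r of 0.11 (from -0.15 to 0.57 over 14 pairs). For libraries that differ in sex or number it was -0.03 (from -0.63 to 0.38 over 38 pairs). Whether libraries with the same sex and number share more than a label was not tested. With coding transcripts alone, 0 of the 90 relations with marker lists passed after adjustment, against 8 in the reported values; without scaling 6 of those 8 passed, with the other scalings and pseudocounts all 8, and with a library left out 7 or 8. With coding transcripts, Alox5 and Pou2f3 no longer passed the filter. The cause of these changes was not tested. Sucnr1, with 4 to 15 reads per library, was fitted by limma only in the alternative without a filter on low values.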
